A study of Rattus norvegicus with 12 samples.

Results

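The activin, inhibin and anti-Müllerian hormone (AMH) genes form a small signalling family that was followed here in cultured rat Sertoli cells, which line the tubules of the testis and support germ cells. The members are 10 genes chosen by name for their roles in this family, and each was found as the 1 probe set of the gene array whose only annotated gene symbol is that of the member. They are 10 of the 18304 genes that carry a symbol of their own on the array, measured on 6 arrays. MBP cultures received 0.1 mM of a compound that the labels give only as MBP for 24 h, and control cultures, called solvent-treated in the design text, did not. Each group had 3 samples, numbered 1 to 3. Both groups came from testes of 9-day-old rats, digested and kept in serum-containing medium. The labels do not say if the 3 samples of a group come from separate animals or cultures, and p-values therefore cover the spread between samples only, some of which may be technical. The microRNA arrays of the series hold no probe set of these genes and were not used here.

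Activins are dimers of the beta subunits encoded by Inhba and Inhbb, and inhibins pair the alpha subunit from Inha with a beta subunit. Activin binds the type II receptors encoded by Acvr2a and Acvr2b, which recruit a type I receptor and signal through Smad proteins, while follistatin, from Fst, binds activin and blocks it. Immature Sertoli cells are known for secreting AMH, which causes the Müllerian ducts of the male fetus to regress, and for secreting inhibin, which lowers pituitary release of follicle-stimulating hormone.

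The main split in the data was between members above background on all arrays and the other members. Background was taken for each array as the 95th percentile of the log2 signals of 1153 intron control probe sets, which target sequence that mature messenger RNA does not keep. It lay at 5.81, 5.85 and 6.18 on MBP arrays 1 to 3, and at 5.88, 5.67 and 6.20 on control arrays 1 to 3. Inhba, Fst, Fstl1 and Acvr1 were above it on all 6 arrays. Acvr2a was above it on control arrays 2 and 3 alone, and Inha, Inhbb, Acvr2b, Amh and Amhr2 were below it on all 6. Thus 4 of 10 members were above background throughout, where 23.2% of the 27342 tested probe sets were. At the 99th percentile Inhba and Fstl1 were the 2 members above background on all 6 arrays.

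The sequences before the annotated starts of Inhba, Inha and Amh are shown. Inhba was above background on every array, while Inha and Amh, both textbook Sertoli cell products, were below it on every array. Each line gives the 250 bases before the start in the RefSeq promoter table of GRCr8, which matched 8 of the 10 members. Capitals mark matches, on either strand, to the cAMP response core TGACG, the AP-1 motif TGANTCA, the nuclear receptor core AGGTCA, the GATA motif GATAA, the TATA box TATAAA and the CCAAT box CCAAT. Only these letters were searched, so GATA followed by another letter, as in the GATAG of these windows, is not marked.
Inhba (chr17:53804509-53804758, minus strand): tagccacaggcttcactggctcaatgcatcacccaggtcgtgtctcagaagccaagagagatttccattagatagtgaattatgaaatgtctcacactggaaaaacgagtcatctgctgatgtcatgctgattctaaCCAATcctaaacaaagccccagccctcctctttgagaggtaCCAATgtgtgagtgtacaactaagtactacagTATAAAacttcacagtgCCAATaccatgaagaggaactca
Inha (chr9:84442859-84443108, plus strand): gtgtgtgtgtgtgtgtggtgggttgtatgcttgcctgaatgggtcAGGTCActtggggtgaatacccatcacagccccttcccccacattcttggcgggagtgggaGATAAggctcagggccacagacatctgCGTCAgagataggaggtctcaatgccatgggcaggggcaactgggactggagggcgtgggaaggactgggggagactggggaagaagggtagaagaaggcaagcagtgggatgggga
Amh (chr7:9559868-9560117, minus strand): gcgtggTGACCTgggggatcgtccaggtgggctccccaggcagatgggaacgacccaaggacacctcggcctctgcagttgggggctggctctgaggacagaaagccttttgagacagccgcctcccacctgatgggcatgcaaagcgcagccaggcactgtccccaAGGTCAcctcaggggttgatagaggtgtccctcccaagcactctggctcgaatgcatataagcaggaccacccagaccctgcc
The Inhba window held a TATAAA that begins 40 bases before the start and CCAAT at 113, 72 and 23 bases before it. TATAAA occurs in 12.9% of the 33469 promoter windows of this length, and CCAAT in 34.0%. The Inha window held TGACG on the minus strand, printed as CGTCA and beginning 117 bases before the start, GATAA at 144 bases and AGGTCA at 205 bases. TGACG occurs in 18.2% of all windows and GATAA in 23.5%. The Amh window held AGGTCA at 83 bases before the start and, on the minus strand, at 244 bases. AGGTCA, the core letters bound by steroidogenic factor 1 and related receptors, occurs in 14.1% of all windows. TGANTCA, found in 6.34% of all windows, was in none of the 3, and no matches overlapped. These matches describe the letters alone, and no binding was measured.

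**Figure D1:**
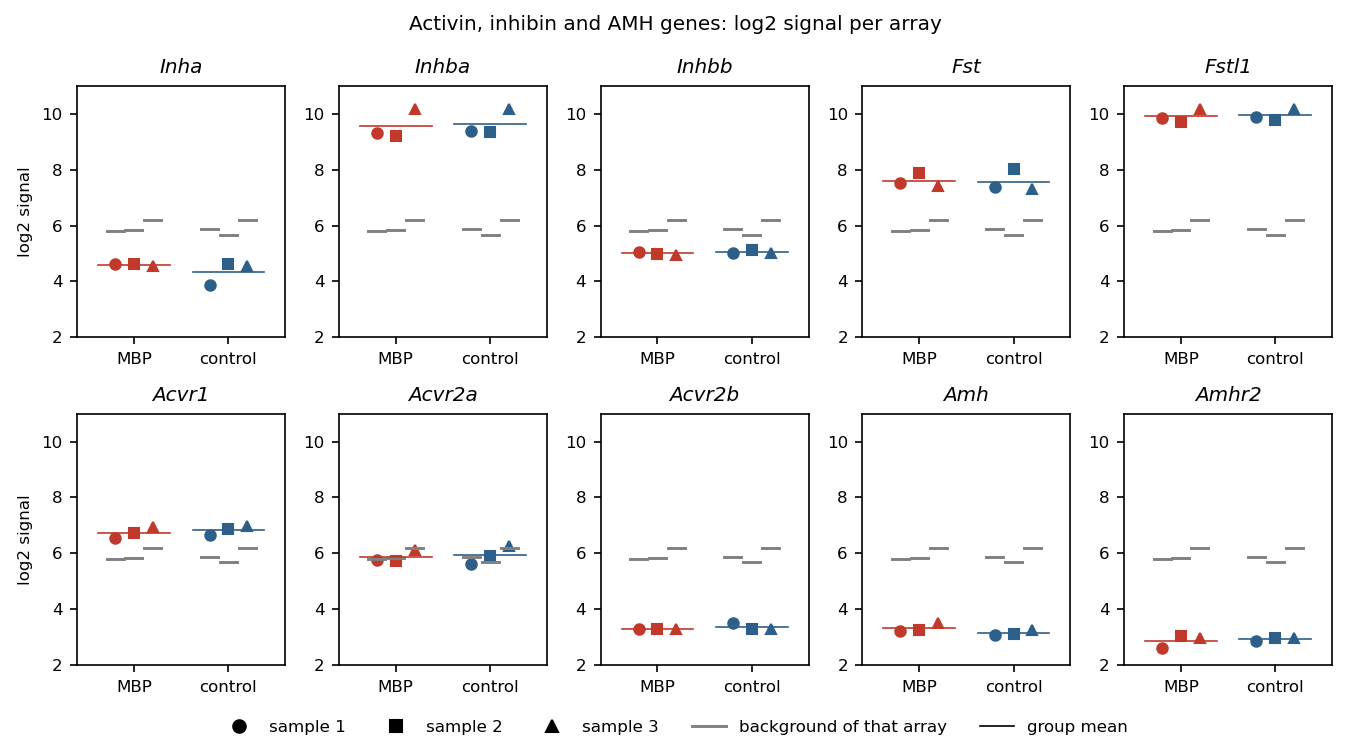
Log2 signal of the 10 members on each array, with MBP arrays left and control arrays right in each panel. Circles, squares and triangles are samples 1, 2 and 3, coloured lines are group means, and grey ticks are the background of that array. Inhba, Fst, Fstl1 and Acvr1 lie above the grey ticks on all 6 arrays, and MBP and control values overlap in every panel.

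MBP and control cultures did not differ detectably in any member. Limma was fitted to all 27342 main probe sets on the groups alone. There 0 of 10 members had an adjusted limma p under 0.05, where 0% of all probe sets passed in either direction. At an unadjusted limma p under 0.05 there were likewise 0 of 10 members, where 1.28% of all probe sets fell there. For 0 of 10 members did the 3 MBP values lie apart from the 3 control values, against 3.43% of all probe sets. Of the 10 members, 3 had a higher and 7 a lower mean with MBP, with a median log2 difference of -0.046. Over all tested probe sets the median was -0.0065, with 12694 higher and 14648 lower. Every member had an adjusted p of 1 in this fit, which leaves the spread between sample numbers in its error. With the sample number as a block in limma, 0 of 10 had an adjusted p under 0.05. In that blocked limma fit 1 of 10, Amh, had an unadjusted p under 0.05, where 4.59% of all probe sets did. The 95% interval of the difference stayed within a 2-fold change for all 10 in both fits. For the 6 that were not above background throughout, a signal near or below background limits what a lack of difference can show.

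Among the ligand subunits, Inhba was the 1 above background. Inhba (ENSRNOG00000014320, chromosome 17, 49965505 to 49978776, Rnor_5.0, minus strand) encodes the beta-A subunit, the building block of activin A. Its log2 signals were 9.30, 9.22 and 10.17 on MBP arrays 1 to 3, and 9.38, 9.34 and 10.16 on control arrays 1 to 3. The array of sample 3 was the highest in both groups, and the groups overlapped throughout. The means were 9.56 ± 0.52 with MBP and 9.62 ± 0.47 in control (SD, n = 3 each), a log2 difference of -0.063 with a 95% interval of -0.90 to 0.77. That interval holds the spread between sample numbers, and with the sample number as a block in limma it was -0.20 to 0.074.

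Inha (ENSRNOG00000020097, chromosome 9, 82469743 to 82472643, plus strand) encodes the alpha subunit that makes a dimer an inhibin. Its log2 signals were 4.62, 4.62 and 4.55 with MBP, against 3.86, 4.62 and 4.55 in control, all between 1.05 and 2.02 below the background of their array. Control array 1 was lower than the other 5 arrays, which lay close together. The log2 difference was 0.25 (95% interval -0.26 to 0.77, or -0.19 to 0.70 with the sample number as a block). That difference rested on control array 1, and without this array it was 0.011. Inhbb (chromosome 13, 40555699 to 40561389, minus strand), for the beta-B subunit, had log2 signals of 5.06, 4.98 and 4.96 with MBP, and 5.004, 5.11 and 5.004 in control. These 6 values lay within 0.15 of each other and below background. The difference was -0.039 (95% interval -0.18 to 0.10, or -0.19 to 0.11 with the block).

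The follistatin genes were both above background. Fst (ENSRNOG00000011631, chromosome 2, 65577804 to 65583544, minus strand), the activin antagonist, had log2 signals of 7.54, 7.87 and 7.41 with MBP, against 7.38, 8.01 and 7.30 in control. Sample 2 was the highest in both groups. The log2 difference was 0.041, with a 95% interval of -0.51 to 0.59, or -0.16 to 0.24 with the sample number as a block. Fstl1 (ENSRNOG00000002746, chromosome 11, 68876239 to 68907277, minus strand), a secreted glycoprotein with a follistatin-like domain, had 9.87, 9.70 and 10.19 with MBP, against 9.90, 9.78 and 10.19 in control. Sample 3 was the highest in both groups, and the difference was -0.038 (95% interval -0.44 to 0.36, or -0.17 to 0.093 with the block).

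Of the receptors, Acvr1 was the 1 above background on all arrays. Acvr1 (ENSRNOG00000005033, chromosome 3, 49551414 to 49641517, minus strand), a type I receptor used by bone morphogenetic proteins and by AMH, had log2 signals of 6.54, 6.73 and 6.94 with MBP, and 6.64, 6.86 and 6.99 in control. MBP was below control in each of the 3 pairs of same-numbered samples, with log2 differences of -0.096, -0.129 and -0.055, although the groups overlapped. Over all members 1 was lower and 1 higher in all 3 pairs, while 21.4% of all probe sets had 1 direction in all 3. The Acvr1 difference was -0.093 (95% interval -0.42 to 0.24, or -0.22 to 0.036 with the sample number as a block).

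The type II receptor gene Acvr2a (chromosome 3, 38113728 to 38197535, plus strand) sat at the edge of background, with log2 signals of 5.76, 5.73 and 6.13 with MBP, against 5.61, 5.90 and 6.25 in control. Its arrays ranged from 0.27 below to 0.23 above their background. The difference was -0.053, with a 95% interval of -0.53 to 0.42, or -0.26 to 0.16 with the sample number as a block. Acvr2b (chromosome 8, 127293865 to 127325514, plus strand) stood at 3.30 on every MBP array and at 3.49, 3.30 and 3.30 on the control arrays, at least 2.37 below background. It had exactly the same value on 4 arrays. Of the 10 members, 4 had an exactly equal value on 2 or more arrays, all of them below background, and 45.4% of all tested probe sets did. What made the values equal was not tested, and the spread of such probe sets is not a full measure of error.

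AMH and its receptor were near the bottom of the scale. Amh (ENSRNOG00000019377, chromosome 7, 11942870 to 11945218, minus strand) had log2 signals of 3.22, 3.26 and 3.50 with MBP, against 3.07, 3.11 and 3.24 in control, 2.56 to 2.95 below background. MBP was above control in each of the 3 pairs, with log2 differences of 0.151, 0.149 and 0.254. The groups overlapped, since MBP array 1 lay below control array 3. The difference was 0.185 (95% interval -0.049 to 0.42). With the sample number as a block the interval was 0.048 to 0.32 (limma, adjusted p = 0.865). Amh was the 1 member of 10 under an unadjusted p of 0.05 in that fit, where 4.59% of all probe sets were. Amhr2 (chromosome 7, 141844072 to 141852589, plus strand), the AMH-specific type II receptor, had 2.61, 3.03 and 2.96 with MBP, and 2.84, 2.96 and 2.96 in control. These values were 2.71 to 3.23 below background, with a difference of -0.057 (95% interval -0.36 to 0.24, or -0.25 to 0.14 with the block).

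**Figure D2:**
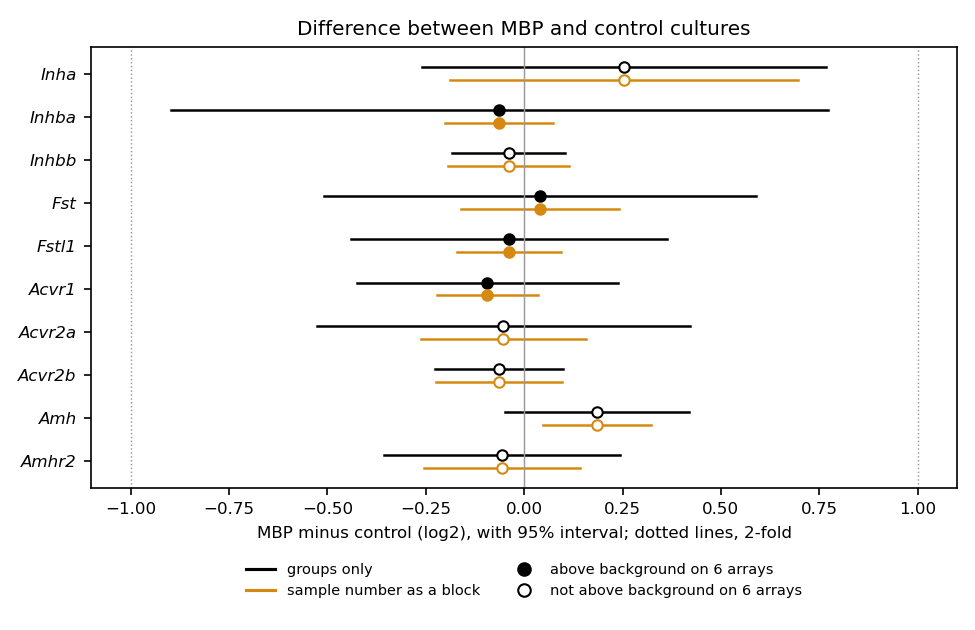
MBP minus control on the log2 scale for the 10 members, with 95% intervals from limma fitted on the groups alone (black) and with the sample number as a block (orange). Filled points are the 4 members above background on all 6 arrays, and open points are the other 6. Every interval lies inside the dotted lines of a 2-fold change, and the blocked interval of Amh is the 1 interval that leaves out 0.

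Samples of the same number deviated together from the means of their groups. Of the 4 members above background, Inhba, Fst and Fstl1 differed between numbers in a test that needs all 6 arrays. Inhba averaged 9.34, 9.28 and 10.16 in samples numbered 1, 2 and 3, so sample 3 stood 1.85-fold above the lowest. Fst averaged 7.46, 7.94 and 7.36, with sample 2 the highest, 1.50-fold above the lowest. Fstl1 averaged 9.88, 9.74 and 10.19. Acvr1 averaged 6.59, 6.80 and 6.96. For Fst, samples 1 and 3 lay close together, with interleaved arrays, and sample 2 stood apart. For Inhba, samples 1 and 2 interleaved and sample 3 stood apart.

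These differences were tested in limma with a moderated F test of the sample number beside the treatment, over all 27342 probe sets. It was planned to run only if same-numbered samples deviated together on these same arrays, so its calls are not independent of that pairing. Of the 10 members, 3 passed, where 9.62% of all probe sets passed, and these were Inhba (adjusted p = 0.0091), Fst (adjusted p = 0.0447) and Fstl1 (adjusted p = 0.035). Among probe sets above background 24.1% passed. Acvr1 (adjusted p = 0.0519) and Acvr2a (adjusted p = 0.0697) did not pass, and after quantile normalization their adjusted limma p-values were 0.0399 and 0.0465. The test needs all 6 arrays. Without any 1 of the control arrays 1, 2 or 3 or the MBP arrays 1, 2 or 3, no probe set passed in limma, 4479 to 6112 had an unadjusted p under 0.05, and the adjusted p of Inhba lay between 0.137 and 0.243, of Fst between 0.157 and 0.281 and of Fstl1 between 0.156 and 0.261. The span of the Inhba means over the numbers stayed between 0.83 and 0.95 in those fits. With both arrays of a number left out, the spans depended on which number it was. Without sample 3 the Inhba span was 0.062 (limma, adjusted p = 0.674) and the Fstl1 span 0.14 (limma, adjusted p = 0.446), and without sample 2 the Fst span was 0.10 (limma, adjusted p = 0.388). The Inhba and Fstl1 differences thus lay mostly between sample 3 and the others, and that of Fst between sample 2 and the others. Background was also highest on the sample 3 arrays, at 6.18 with MBP and 6.20 in control. Over the background of its array, Inhba was still highest in sample 3 in both groups. Fstl1 and Acvr1 were not, with Fstl1 at 4.06, 3.85 and 4.01 on MBP arrays 1 to 3, and 4.02, 4.11 and 3.99 on control arrays. After quantile normalization the Fstl1 span was 0.52. The part of array-wide signal in these spans was not tested.

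Markers of contractile and connective tissue cells moved with the sample number as well. All 7 measured genes of a list of 8 for peritubular myoid cells and fibroblasts were above background. Their mean log2 signal was 8.84, 8.98 and 10.25 on MBP arrays 1 to 3, and 8.90, 9.14 and 10.29 on control arrays 1 to 3, so sample 3 was the highest in both groups, as for Inhba and Fstl1. Actg2, the smooth muscle gamma-actin, averaged 7.92, 8.48 and 10.45 in samples 1, 2 and 3 (limma, adjusted p = 0.00277). Of the 7 markers, 6 passed the test of the sample number, where 24.1% of all probe sets above background passed. Of 9 measured genes on a list of 10 Sertoli cell markers, which holds Amh and Inha too, Wt1, Gata4, Clu and 1 of the 2 probe sets of Fshr were above background throughout. The Fshr probe set in question has no Ensembl transcript of that gene in the annotation. Cldn11 and Dhh were below background on all arrays, like Amh and Inha. Of the 10 probe sets of that list 2 passed the test of the sample number, where 9.62% of all probe sets passed. These were Clu, which encodes the secreted protein clusterin, at 8.72, 9.52 and 9.54 in samples 1, 2 and 3 (limma, adjusted p = 0.0101), and the transcription factor gene Sox9, above background on 5 arrays, at 5.98, 6.13 and 6.87 (limma, adjusted p = 0.0231). Clu was lowest in sample 1, and Sox9 was highest in sample 3. Wt1, another transcription factor gene of Sertoli cells, averaged 7.02, 6.99 and 6.96 in samples 1, 2 and 3 and did not pass (limma, adjusted p = 0.868), nor did Gata4, at 7.96, 8.09 and 8.14 (limma, adjusted p = 0.286). Measured markers of macrophages and leukocytes (4 genes) and of endothelium (3 genes) were below background on all arrays, as were 4 of 5 for Leydig cells, all but Star, and 4 of 5 for germ cells, all but Uchl1. The part of cell composition in the Inhba, Fst and Fstl1 differences was not tested, and in these bulk samples fewer cells of a type and less RNA per cell cannot be told apart.

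**Figure D3:**
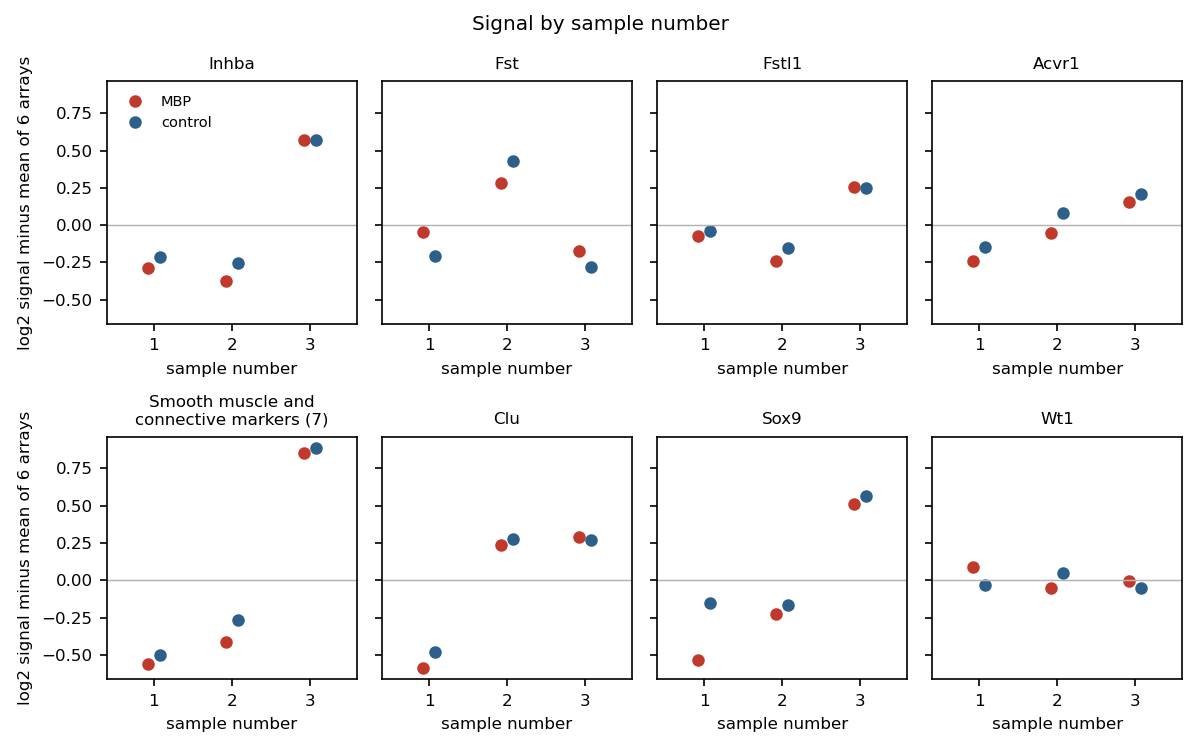
Log2 signal minus the mean of the 6 arrays, by sample number, for the 4 members above background, for the mean of 7 myoid and fibroblast markers and for Clu, Sox9 and Wt1 from the Sertoli cell list. Red points are MBP arrays and blue points control arrays. Sample 3 stands above the others for Inhba and Fstl1 and sample 2 for Fst, while the other samples of Inhba and Fst interleave. Sample 3 has the highest mean for Acvr1, the marker mean and Sox9 too, Clu is lowest in sample 1, and Wt1 varies little.

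Genes whose profile over the 6 arrays was closest to Inhba were Lpar6, a lysophosphatidic acid receptor, Pdlim5, a scaffold protein of actin filaments, Rab3ip, Slc35e2b and Lima1, an actin cross-linking protein. Closeness was the root mean square difference between mean-centred log2 profiles, and it ran from 0.032 for Lpar6 to 0.051 for Lima1. Lpar6 had 6.30, 6.14 and 7.13 on MBP arrays 1 to 3, against 6.39, 6.27 and 7.11 on control arrays 1 to 3. For Fst the closest were the zinc transporter gene Slc39a14 (0.064), the replication helicase gene Mcm2 (0.071), the iron transporter gene Slc11a2 (0.073), Eif3d (0.077) and Pes1 (0.081). Slc39a14 had 9.01, 9.36 and 8.71 with MBP, against 8.85, 9.43 and 8.72 in control. The closest gene to Fstl1 was Herpud1 (0.013), and the closest to Acvr1 was Nup62 (0.024). No member above background spanned the log2 range of 1 that the planned rule asked for. Inhba spanned 0.95, Fst 0.71, Fstl1 0.50 and Acvr1 0.45, so these profiles were chosen after their values were seen. They describe 6 arrays that share the sample numbers, and say nothing on shared control.

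The wider pathway was covered by 6 lists with 52 genes, of which 49 had a probe set of their own, 50 probe sets in all. Background was exceeded on all 6 arrays by 15 of the 50 and by 23.2% of all tested probe sets. On no array was it exceeded by 27 of the 50 and by 18938 of the 27342 tested. In limma, 0 of 50 passed for MBP in either direction, and 0 had an unadjusted p under 0.05, where 1.28% of all probe sets did. Their median log2 difference was -0.011, with 23 higher and 27 lower. With the sample number as a block 0 passed, and 3 of the 50 had an unadjusted limma p under 0.05, where 4.59% of all probe sets did. These were Acvrl1, Grem1 and Smad9 (all with an adjusted limma p of 0.865). Acvrl1 was above background on all 6 arrays, Grem1 on 4 and Smad9 on 0.

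Among the 8 measured receptors and co-receptors 4 were above background. Acvr1b, the type I receptor through which activin mainly signals, was above it on 4 arrays, at 6.39, 6.37 and 6.04 with MBP, against 6.31, 6.57 and 6.15 in control. Tgfbr3, betaglycan, an inhibin co-receptor, had 6.97, 7.10 and 7.16 with MBP, against 6.99, 7.30 and 7.30 in control. Its groups overlapped, and the difference was -0.12 (95% interval -0.38 to 0.14). Bmpr2, a type II receptor for bone morphogenetic proteins, had 8.49, 8.24 and 9.19 with MBP, against 8.46, 8.22 and 9.27 in control, with sample 3 the highest in both groups. Bmpr1a, a type I receptor, averaged 7.81 in both groups. Acvrl1 averaged 6.60 with MBP and 6.76 in control, and Acvr1c, below background, 2.72 and 2.53.

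Of the 10 measured Smads and partners, Smad1, Smad2, Smad4, Smad5, Skil and 1 of the 2 probe sets of Smurf2 were above background. Smad2, an effector of activin, had 6.90, 6.82 and 7.10 with MBP, and 6.88, 6.91 and 7.17 in control. Smad3, the other activin effector, was above background on 1 array, at a mean of 5.80 ± 0.04 with MBP and 5.72 ± 0.14 in control (SD, n = 3 each). Smad4, the shared partner of the signalling Smads, had 7.90, 7.995 and 8.32 with MBP, and 7.93, 8.07 and 8.39 in control. Smad5 averaged 6.39 with MBP and 6.51 in control, with a difference of -0.12 (95% interval -0.30 to 0.065).

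Of 11 other ligands, Bmp6 alone was above background, at 8.77, 8.77 and 9.56 with MBP, against 8.70, 8.84 and 9.63 in control, again with sample 3 the highest. Inhbc and Inhbe, further beta subunits, were below background on every array. Of 9 binding proteins and antagonists, Fstl3, an activin-binding relative of follistatin, was the 1 above background, at 7.91, 7.86 and 8.44 with MBP, against 7.76, 7.81 and 8.37 in control. Furin, a protease that cuts the precursors of this family, had 7.94, 8.23 and 7.84 with MBP, and 7.94, 8.33 and 7.92 in control, so sample 2 was the highest in both groups, as for Fst. Of 8 regulators of Amh transcription, Wt1 and Gata4 were above background throughout and Sox9 on 5 arrays. Nr5a1, which encodes steroidogenic factor 1, was above it on 2. Nr0b1, with the smallest unadjusted limma p of this list (0.0958), was below background, at 2.98 with MBP and 2.78 in control. The convertase gene Pcsk6 was below background, at 3.57 with MBP and 3.49 in control. Bmp15 averaged 2.34 with MBP and 2.48 in control, Bambi 4.21 with MBP and 4.14 in control, and Smad7 5.87 with MBP and 5.96 in control. None of these passed.

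The test of the sample number, by contrast, called 13 of the 50 pathway probe sets, where 9.62% of all probe sets passed, and 7 of the 15 above background, where 24.1% of all probe sets above background passed. Those 7 were Bmp6 (adjusted p = 0.0108), Bmpr2 (adjusted p = 0.00821), Fstl3 (adjusted p = 0.0175), Smad1, Smad4, Skil and Furin in the same limma fit. Of the 15, 13 had their highest mean in sample 3, as had 3 of the 4 members above background and 36.3% of all probe sets above background. Without any 1 of the 6 arrays none of these calls was kept, as given above. The span over sample numbers exceeded the size of the MBP difference for 10 of 10 members and for 6105 of 6341 probe sets above background. A span of 3 means tends by construction to exceed a difference of 2, so this is a description.

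**Figure D4:**
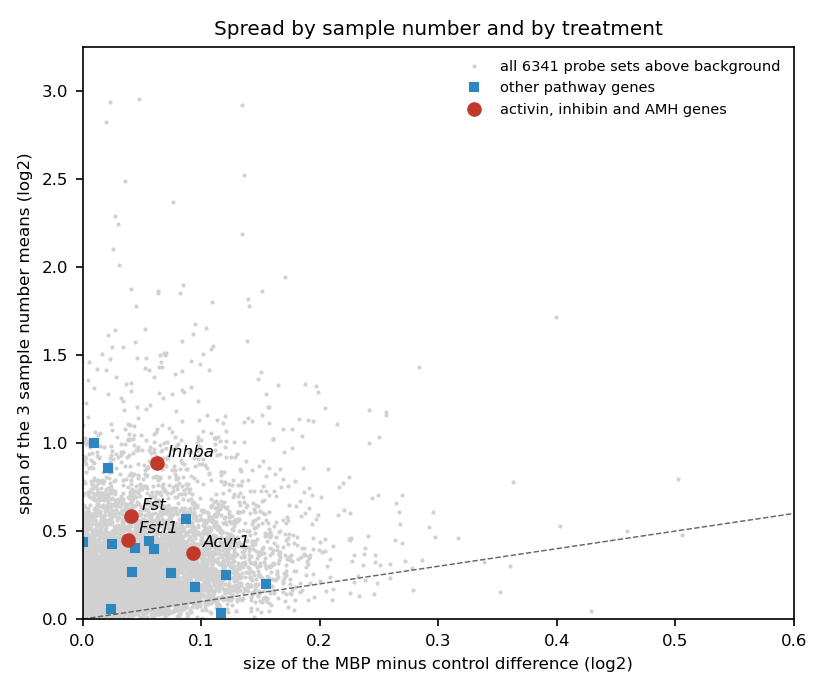
Span of the 3 sample number means against the size of the MBP minus control difference, both on the log2 scale, for all 6341 probe sets above background (grey), 15 pathway probe sets (blue squares) and the 4 members above background (red circles). The dashed line marks equal values, and the 4 members lie above it, with Inhba at 0.89 against 0.063.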

How the data were processed

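RNA of 3 MBP and 3 control samples was measured on Affymetrix rat gene arrays. The deposited values are log2 probe set signals with near-equal medians, from 3.84 on control array 2 to 3.89 on MBP array 2. They were taken as normalized across the 6 arrays by the authors. The submitters' processing notes name MAS5 without a role, and the summary method was not given in the sources used here. An annotated table the authors deposited gave symbols, categories and Ensembl positions on Rnor_5.0, and its 6 signal columns match no sample label and were not used. Of 29214 probe sets, the 27342 of the main category were tested. Of these 19812 had 1 symbol, 2167 several and 5363 none. The probe set positions of that table name no build and were not printed.

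Each test was fitted to all main probe sets with limma 3.58.1 in R 4.3.3 (lmFit, eBayes), with Benjamini-Hochberg adjustment and a threshold of 0.05, and was tested on simulated data. Deviations of same-numbered samples from their group means correlated at 0.567, 0.603 and 0.779 across probe sets, each over the minimum of 0.1, so the numbers pair the samples. The pairing thus rests on the data, and the labels give just the number. The members, lists and tests were chosen with earlier results of these data known. All members are named. Of each pathway list, genes that passed, those above background and otherwise the 2 of smallest p are eligible. The number of arrays, 3 in each group, limits the precision, and arrays carry no read depth. Alternatives were the block, quantile normalization, median centring, a filter on dim probe sets, a trended robust eBayes, other background percentiles and left-out arrays.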

Additional observations from a re-analysis of the deposited data

How the results depend on the processing

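For MBP minus control, 0 probe sets passed in limma under every alternative run. With the sample number as a replicate block 0 passed (smallest adjusted p = 0.865, 1255 at an unadjusted p under 0.05), and the block changed no call. Without single arrays, or both arrays of a number, the count was also 0 (409 to 1096 at an unadjusted p under 0.05). No member changed sign under the block, quantile normalization, median centring, the filter or the trended eBayes. Without both arrays of a number, in the blocked fit, the log2 difference was -0.018 for Fst and 0.033 for Amhr2 without number 1, and 0.0095 for Acvr2a and 0.0063 for Inhbb without number 2. Over all fits with arrays left out, the log2 difference ranged from -0.36 to 0.21 for Inhba, -0.089 to 0.0063 for Inhbb, -0.091 to 0.27 for Fst, -0.18 to 0.078 for Fstl1, -0.19 to 0.0043 for Acvr1, -0.21 to 0.11 for Acvr2a and -0.14 to 0.073 for Amhr2. Inha, at 0.00096 to 0.39, Acvr2b, at -0.095 to -0.0026, and Amh, at 0.098 to 0.24, kept their sign. The Acvr2b value of -0.0026 was without control array 1, and the Amh value of 0.098 without MBP array 3. The sample number test called 2630 of 27342 probe sets, and 4238 of them with the trended eBayes. Of the 6341 above background, 1529 (24.1%) were called in the main fit and 4052 when only those 6341 were fitted. The 24.1% set beside the members, the markers and the pathway genes thus depends on the fit. The adjusted limma p of Acvr1 was 0.00263 in the filtered fit and 0.0292 with the trended eBayes. The sample number test called 0 with arrays left out, which leaves fewer residual degrees of freedom (3645 to 6124 at an unadjusted limma p under 0.05). Members above background numbered 5 at the 90th and 2 at the 99th percentile of the intron controls, and 4 without any 1 array. Signal near or below background limits what can be said of the other members.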
